A study of Mus musculus with 4 samples.

Results

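The cathepsins are proteases of the lysosome, and 9 of their genes were examined for 2 histone marks in mouse peritoneal macrophages: Ctsa, Ctsb, Ctsc, Ctsd, Ctsh, Ctsk, Ctsl, Ctss and Ctsz. They were taken by name from 21887 protein-coding RefSeq genes, and every peak that overlapped a gene or lay within 2500 bp of it was counted for that gene. This gave 23 of the 96551 peaks in the series. The 4 chromatin immunoprecipitation (ChIP-seq) libraries were H3K4me3 and H3K9me3 from Sun-/- macrophages, here called Sun knockout, and H3K4me3 and H3K9me3 from wild-type macrophages. All came from C57BL/6 mice of 8 weeks, whose thioglycollate-elicited cells were collected from the peritoneum and cultured. The labels give neither the gene that Sun stands for, nor how it was deleted, nor how many mice gave each library. There was 1 library per mark and genotype, so differences between genotypes stand without replicates. No test between genotypes was run, and all 95% intervals cover counting error only. Positions are on the mouse build mm10.

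Cathepsins are made as inactive precursors, sorted to lysosomes and activated there. Ctsa encodes a serine carboxypeptidase and Ctsd an aspartic protease, while the other members encode cysteine proteases. In macrophages these enzymes digest material taken up from outside the cell, and some of them prepare antigens for presentation on MHC class II molecules. H3K4me3 is found around the starts of active genes, often over CpG-rich promoters, and H3K9me3 over silenced chromatin.

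The H3K4me3 lists held 28505 peaks in the Sun knockout library and 31398 in the wild-type library, from 26748289 Sun knockout tags and 29681491 wild-type tags after duplicate removal. The H3K9me3 lists held 17369 Sun knockout peaks and 19279 wild-type peaks, from 28586946 Sun knockout tags and 27727997 wild-type tags. H3K4me3 was listed at 8 of 8 macrophage markers in both genotypes. Among all protein-coding genes, 68.5% had such a peak in both genotypes, 1.45% in the Sun knockout alone, 2.83% in the wild type alone and 27.2% in neither. Of 27 markers of other cell types (B cells, T and NK cells, neutrophils, eosinophils and mast cells, mesothelial cells and fibroblasts), 7 had a peak in both genotypes, 2 in the Sun knockout alone and 4 in the wild type alone, and 14 had none. By cell type, the neutrophil genes S100a8 (21 tags) and Camp (56 tags) were listed in the Sun knockout alone and Mmp8 (19 tags) in the wild type alone. S100a9 and Ly6g of the neutrophil list had no H3K4me3 peak. The mesothelial and fibroblast genes Upk3b (101 tags), Krt19 (33 tags) and Col1a2 (79 tags) were listed in the wild type alone. Of the same list, Pdgfra (451 tags in the Sun knockout, 591 in the wild type), Wt1 (207 and 321) and Col1a1 (140 and 199) were listed in both genotypes. Msln was listed in neither. The eosinophil gene Siglecf held 75 tags in the Sun knockout and 32 in the wild type, while Prg2, Epx, Cpa3 and Tpsb2 of its list had no H3K4me3 peak. The part of other cells in the values below was not tested.

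The promoters of 4 members are shown first, because they carry the contrast among the cathepsin genes in H3K4me3 and in sequence. Each is the 250 bases before the annotated start, 5′ to 3′ on the strand of the gene, from RefSeq sequences of GRCm38.p6, the assembly also called mm10. Capitals mark the motifs found, on either strand. Ctsd is at chr7:142387828-142388077 on the minus strand, Ctsk at chr3:95498960-95499209 on the plus strand, Ctss at chr3:95526536-95526785 on the plus strand and Ctsz at chr2:174439040-174439289 on the minus strand.
Ctsd: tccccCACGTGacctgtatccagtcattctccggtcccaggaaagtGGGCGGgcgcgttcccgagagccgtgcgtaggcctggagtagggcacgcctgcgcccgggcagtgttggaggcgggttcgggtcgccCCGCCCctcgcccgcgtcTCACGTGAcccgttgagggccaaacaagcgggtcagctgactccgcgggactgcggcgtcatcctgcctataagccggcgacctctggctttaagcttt
Ctsk: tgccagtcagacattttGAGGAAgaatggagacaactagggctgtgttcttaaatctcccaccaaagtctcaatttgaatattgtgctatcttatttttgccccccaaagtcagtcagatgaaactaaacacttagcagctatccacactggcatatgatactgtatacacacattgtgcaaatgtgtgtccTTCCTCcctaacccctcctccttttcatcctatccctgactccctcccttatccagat
Ctss: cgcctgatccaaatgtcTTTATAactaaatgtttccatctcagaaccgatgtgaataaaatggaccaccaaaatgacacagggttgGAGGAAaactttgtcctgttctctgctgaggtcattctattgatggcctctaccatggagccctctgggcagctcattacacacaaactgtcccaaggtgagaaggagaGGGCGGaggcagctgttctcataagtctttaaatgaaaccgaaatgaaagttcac
Ctsz: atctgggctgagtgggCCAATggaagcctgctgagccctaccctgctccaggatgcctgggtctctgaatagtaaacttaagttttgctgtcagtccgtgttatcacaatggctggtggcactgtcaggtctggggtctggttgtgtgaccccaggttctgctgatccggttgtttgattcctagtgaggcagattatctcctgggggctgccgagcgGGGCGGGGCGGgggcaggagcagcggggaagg

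In all, 7 of the 9 members matched the RefSeq promoter table, with 8 promoters, since Ctsa has a pair of starts. Ctsb and Ctsh are named only, and their positions below are counted from the gene end with the lower coordinate. Distances are from the start to the base of the motif farthest from it. The E-box CACGTG, bound by the MiT factors that control lysosomal genes, was in 6.02% of 32851 promoters of the same length. Its longer form TCACGTGA, which contains the E-box, was in 0.785% of them. A TATA box, searched as TATAAA, was in 12.4% of promoters. The GC box, searched as GGGCGG, was in 32.7%. The CCAAT box, searched by these letters, was in 33.8%. The core of the site of PU.1, a macrophage factor, was searched as GAGGAA and found in 23.3%. The site of AP-1 factors, searched as TGANTCA, was in 6.75% of promoters and in none of the 8 cathepsin promoters. The Ctsd promoter held the E-box at 245 and 98 bases before the start, the nearer one within the longer form, and the GC box at 204 and 117 bases. The longer form was also present at the downstream start of Ctsa, 13 bases before it, and Ctsl held the E-box at 236 bases. Ctsk held the PU.1 core at 233 and 58 bases, and Ctss held it at 164 bases, with a GC box at 55 bases and a TATA box at 233 bases. Ctsc, which was marked over its start, held the PU.1 core at 196 and 149 bases and a GC box at 16 bases. Ctsz held 2 overlapping GC boxes, at 32 and 27 bases, and a CCAAT box at 234 bases. A motif is a match of letters and does not show that a factor binds.

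H3K4me3 was listed at 7 of 9 members in both genotypes, at Ctsd in the wild type alone, at 0 members in the Sun knockout alone, and at Ctsk in neither. Ctss is among the 7 through a peak before the gene. Over all protein-coding genes the shares were 68.5% in both genotypes, 1.45% in the Sun knockout alone, 2.83% in the wild type alone and 27.2% in neither. A peak lay over the annotated start at Ctsa, Ctsc, Ctsl and Ctsz, and over the gene end with the lower coordinate at Ctsb and Ctsh, where the tables used give no start. These 6 members were the same in both genotypes. At Ctsd, Ctsk and Ctss no peak covered the start in either library, although the wild-type Ctss peak began 5 bp after it. H3K4me3 in the family therefore ranged from domains of several kb to no listed peak at all.

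**Figure D1:**
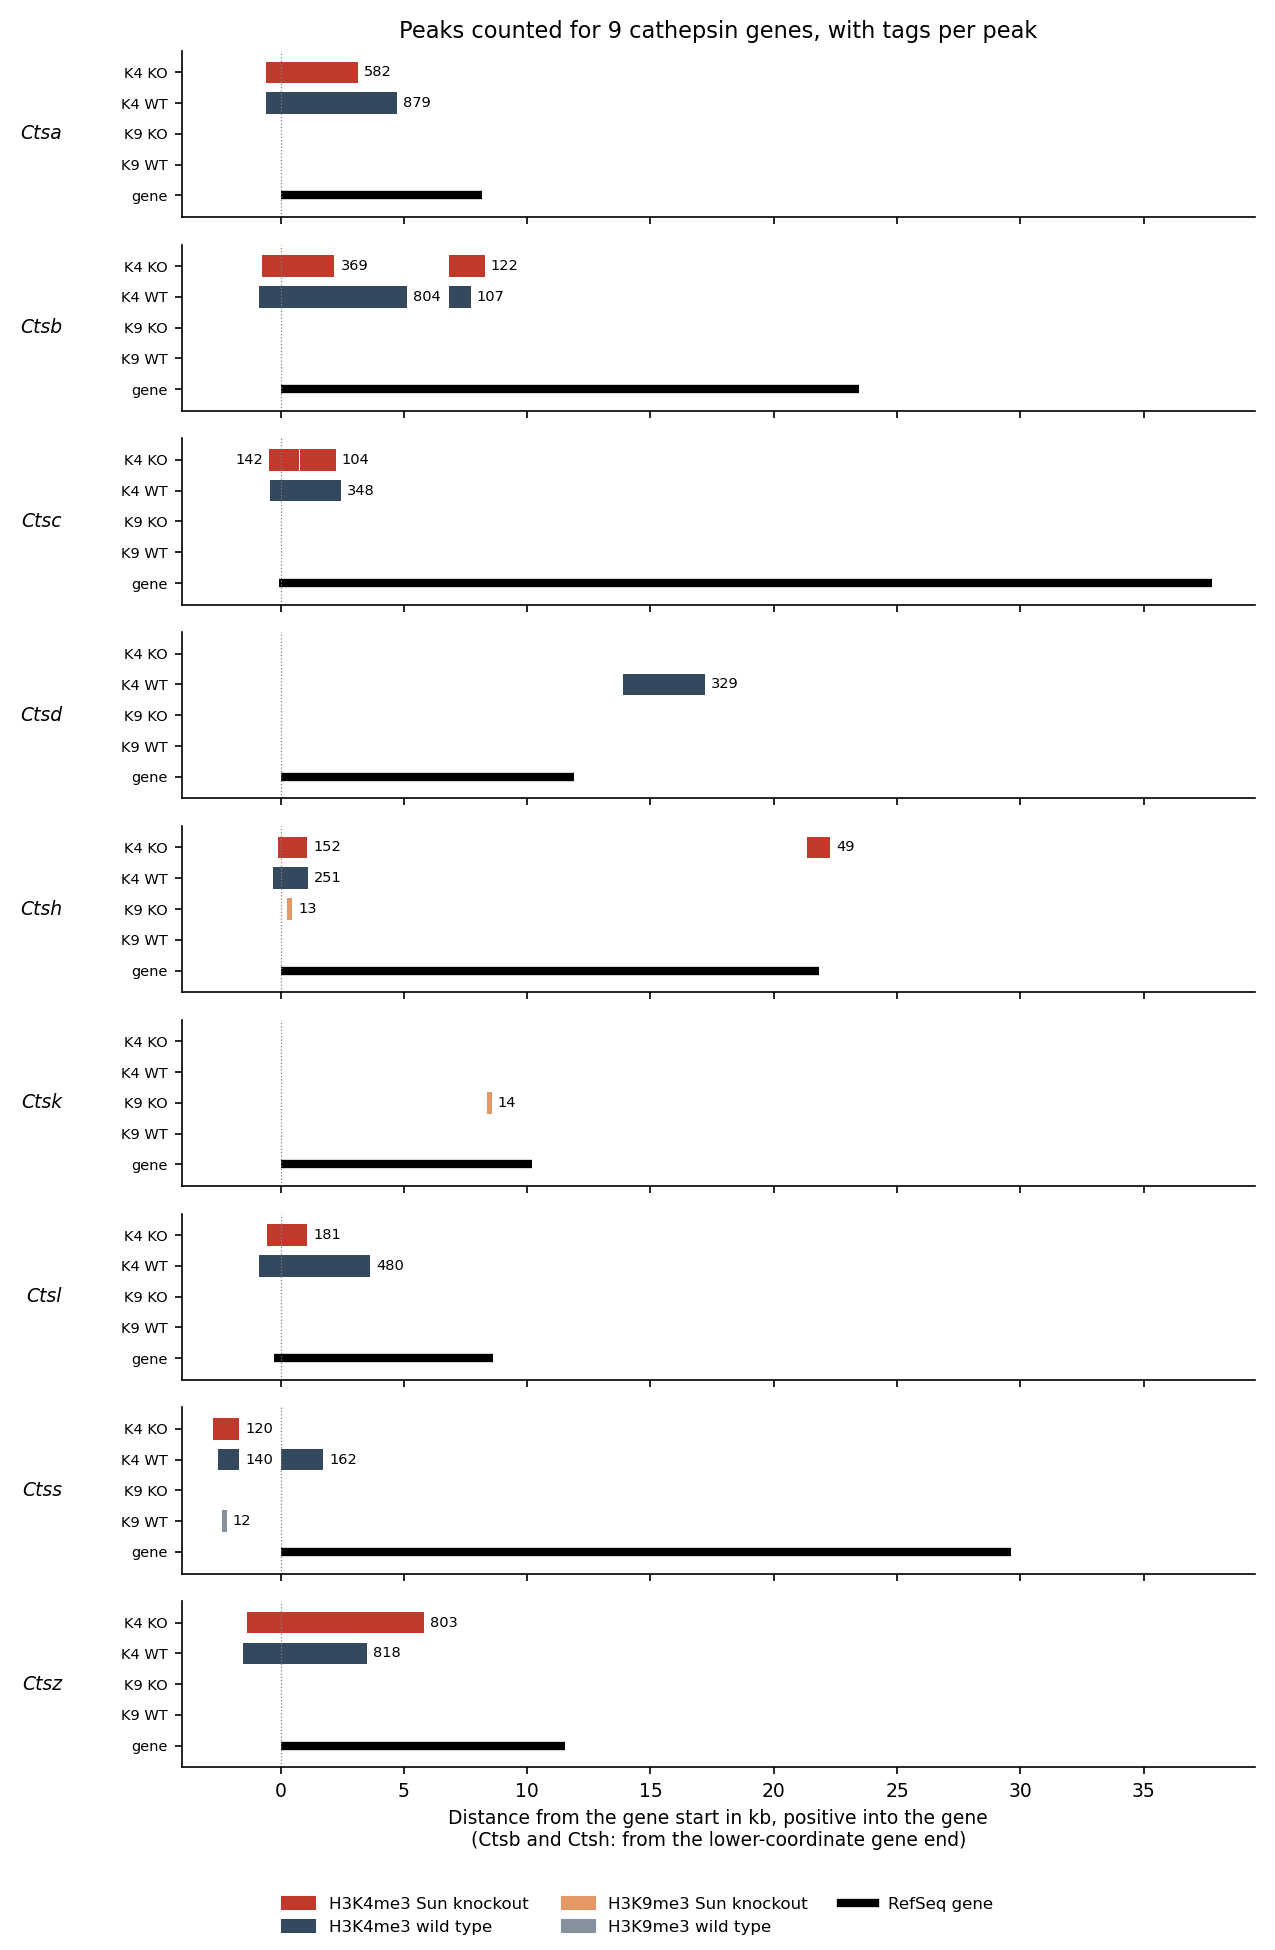
Peaks counted for each cathepsin gene, drawn by distance in kb from the gene start, or from the lower gene end for Ctsb and Ctsh (horizontal axis), with 1 row per library and the tag count beside each peak. Black bars are the genes. At Ctsa, Ctsb, Ctsc, Ctsh, Ctsl and Ctsz an H3K4me3 peak lies over this point in both genotypes, Ctsk has no H3K4me3 peak, and the peak drawn beyond the end of Ctsd lies in the neighbouring gene.

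Ctsa encodes the carboxypeptidase that also holds neuraminidase and beta-galactosidase together in the lysosome. On chromosome 2 its start lay under 1 H3K4me3 peak, from 164832288 to 164836022 with 582 tags in the Sun knockout and from 164832297 to 164837598 with 879 tags in the wild type. The upstream edge differed by 9 bp, while the edge inside the gene lay 3150 bp from the start in the Sun knockout and 4726 bp in the wild type. The peak also covered the start of Neurl2, which runs the other way and overlaps Ctsa, so its tags cannot be assigned to 1 of these genes. In tags per kb the pair of peaks held 156 in the Sun knockout and 166 in the wild type, a log2 ratio of 0.25 (interval 0.10 to 0.40) relative to the median of 17114 peak pairs. With each library set to its filtered tag number instead, that median was -0.19 and the Ctsa pair was at 0.06.

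Ctsz encodes a carboxypeptidase with an integrin-binding motif in its propeptide. It had 803 tags in 7165 bp in the Sun knockout (chromosome 2, 174433239 to 174440403) and 818 tags in 5020 bp in the wild type (174435550 to 174440569). Both domains lay over the start, and the Sun knockout domain reached 5800 bp into the gene, against 3489 bp in the wild type. Only 13 of 28505 Sun knockout peaks were wider, and 229 of 31398 wild-type peaks were wider than that of Ctsz there. The wider Sun knockout domain was less dense, with 112 tags per kb against 163 in the wild type, a centred log2 ratio of -0.20 (-0.34 to -0.06). Its score, which is 10 times the negative log10 of the caller's p-value, was 108 in the Sun knockout and 354 in the wild type, each within its own list.

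Ctsb encodes an endopeptidase and dipeptidyl carboxypeptidase that is abundant in macrophages. Over the lower end of the gene on chromosome 14 its domain held 369 tags in the Sun knockout (63121730 to 63124640) and 804 tags in the wild type (63121597 to 63127596). The Sun knockout domain was 2911 bp wide and the wild-type domain 6000 bp, 2.06 times as wide. A further peak about 7 kb into the gene was listed in both genotypes, with 122 tags in 1460 bp in the Sun knockout and 107 tags in 890 bp in the wild type. The domain at the lower gene end thus ended farther from this inner peak in the Sun knockout than in the wild type.

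Ctsl encodes an endopeptidase that takes part in the processing of the MHC class II invariant chain in thymic epithelium. Its peak held 181 tags in 1618 bp in the Sun knockout (chromosome 13, 64369443 to 64371060), against 480 tags in 4505 bp in the wild type (64366888 to 64371392). The wild-type peak was 2.78 times as wide. Into the gene the peak reached 1077 bp from the start in the Sun knockout, against 3632 bp in wild type. The tag density, not scaled between libraries, was 112 per kb in the Sun knockout and 107 in the wild type. Relative to the median gene this was a log2 ratio of 0.40. The Ctsb domain had 127 tags per kb in the Sun knockout and 134 in the wild type. At both genes the libraries thus differed more in the extent of the domain than in its density.

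Ctsc encodes dipeptidyl peptidase I, which activates serine proteases of granules. On chromosome 7 the Sun knockout list gave it 2 peaks that lay 6 bases apart, with 142 tags (88277614 to 88278849) and 104 tags (88278856 to 88280319). The wild type had 1 peak of 348 tags over nearly the same stretch (88277671 to 88280525). Covered length was 2700 bp in the Sun knockout and 2855 bp in the wild type, so the split changed the number of peaks and hardly their extent. Ctsh, an aminopeptidase gene, had narrower peaks over the lower end of the gene on chromosome 9, with 152 tags in 1180 bp in the Sun knockout (90054182 to 90055361) and 251 tags in 1402 bp in the wild type (90053982 to 90055383). At the other end of Ctsh a peak of 49 tags (90075594 to 90076559) was listed in the Sun knockout alone.

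**Figure D2:**
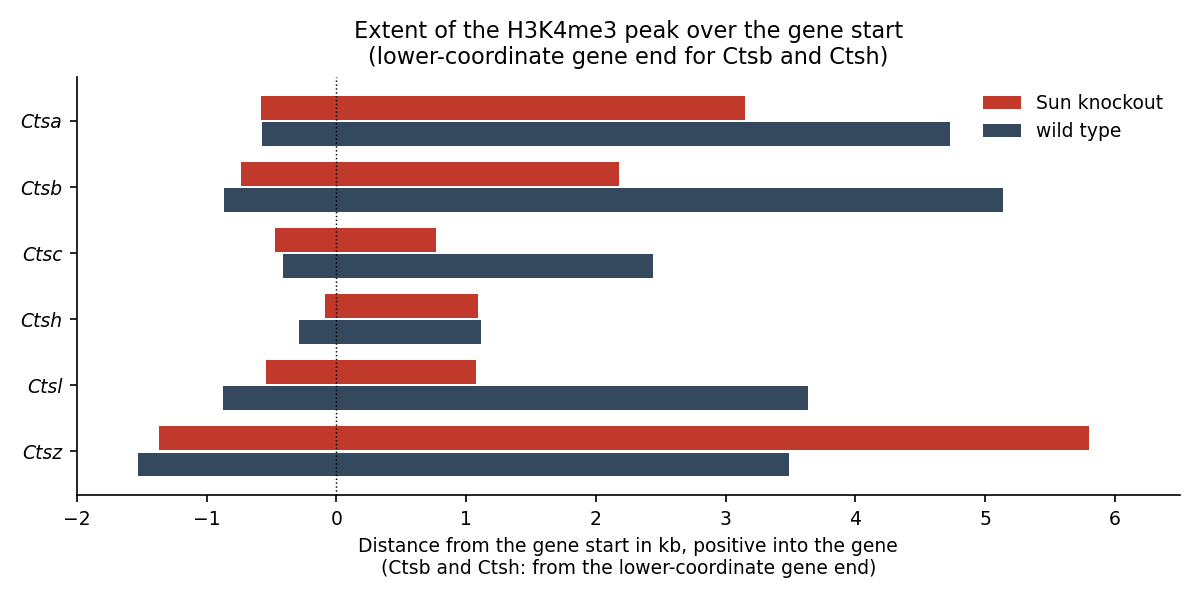
Extent of the H3K4me3 peak that covers the gene start, or the lower gene end for Ctsb and Ctsh, in kb from that point (horizontal axis), for 6 cathepsin genes in 1 library per genotype. The edges inside Ctsa, Ctsb, Ctsc and Ctsl lie nearer to it in the Sun knockout, that of Ctsz lies farther in, and those of Ctsh differ little. For Ctsc only the first of the 2 adjacent Sun knockout peaks is drawn.

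Of 8 H3K4me3 peaks counted for members that overlapped exactly 1 peak of the other genotype, 2 were at least 2-fold narrower in the Sun knockout, those of Ctsb and Ctsl, and 0 were at least 2-fold wider. Over all such peaks 2.69% were at least 2-fold narrower and 0.682% at least 2-fold wider in the Sun knockout. Of 483 wild-type peaks of 4 kb or more, a set chosen by wild-type width, 38 (7.87%) were at least 2-fold narrower in the Sun knockout and 0 at least 2-fold wider. The widest peak of the Sun knockout list was 8483 bp, so hardly any of the 483 could have been 2-fold wider. That 0 therefore says nothing about direction. The median log2 width ratio was -0.09 over all such overlapping peaks and -0.18 over the 483. The members held 4 of the 483, at Ctsa, Ctsb, Ctsl and Ctsz. The wild-type domain of Ctsb was wider than 99.7% of the peaks in its list, and those of Ctsa, Ctsz and Ctsl were wider than 99.4%, 99.3% and 98.9%. Within the wild-type list the fold enrichment was 4.64 at Ctsa, 4.84 at Ctsz and 5.64 at Ctsb, below the median of 7.26, and 7.70 at Ctsl. The fold is over a local background that the caller took from up to 10000 bp around each peak.

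Ctss encodes the endopeptidase that completes invariant chain processing in antigen-presenting cells, and Ctsk encodes the collagen-degrading protease of osteoclasts. They lie 17398 bp apart on chromosome 3, on the same strand. Before Ctss both genotypes had a peak, with 120 tags in the Sun knockout (95524055 to 95525115) and 140 tags in the wild type (95524243 to 95525099). This peak ended 1671 bp before the Ctss start in Sun knockout cells and 1687 bp before it in wild-type cells. It covered the start of the noncoding gene Gm40096, which runs the other way. In the wild type a second peak of 162 tags (95526791 to 95528518) lay just inside Ctss. It had a score of 60.3, near the caller's limit of 50, and only 2.09% of the wild-type peaks had a lower fold enrichment. The paired upstream peak had a centred log2 density ratio of -0.19 (-0.56 to 0.17), so it could not be told from the median pair.

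Ctsk had no H3K4me3 peak in either library. The nearest one was that before Ctss, 24845 bp from the Ctsk start in the Sun knockout and 25033 bp in the wild type. Ctsd, the main aspartic protease gene of the lysosome, had no peak at its start either, and the nearest peak was 14709 bp away in the Sun knockout and 13894 bp away in the wild type. The single peak counted for Ctsd, of 329 tags in the wild type (chromosome 7, 142370626 to 142373933), lay 1977 bp beyond its far end and covered the start of the neighbouring gene Ifitm10. Its Sun knockout counterpart held 317 tags (142369723 to 142373118) and ended 2792 bp from Ctsd, just outside the 2500 bp limit. The call in the wild type alone thus came from the limit and from a neighbour's peak, and not from a peak at Ctsd itself.

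Of the 7 members with a promoter sequence, Ctsd had the most CG dinucleotides. Its 250 upstream bases held 27 of them, more than 91.4% of all promoters, against 10 at the upstream and 6 at the downstream start of Ctsa, 9 at Ctsc, 7 at Ctsl, 7 at Ctsz, 4 at Ctss and 0 at Ctsk. H3K4me3 peaks overlapped 98.1% of the promoters with 25 or more CG in the Sun knockout and 98.9% in the wild type. Of promoters with at most 2 CG, the class of Ctsk, peaks overlapped 4.59% in the Sun knockout and 5.91% in the wild type. Of 3504 promoters with 25 or more CG, 25 (0.713%), of 24 genes, had no H3K4me3 peak in either library, and Ctsd was one of them. Overlap was counted over the 250 bases before and 50 bases after each start, so Ctss counts as marked in the wild type only through its first transcribed bases. The Ctsd promoter therefore lacked a listed peak in a class where nearly every promoter had one, and the Ctsk promoter lacked one in a class where most did. An unlisted peak shows only that the caller's limit was not passed in these lists.

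**Figure D3:**
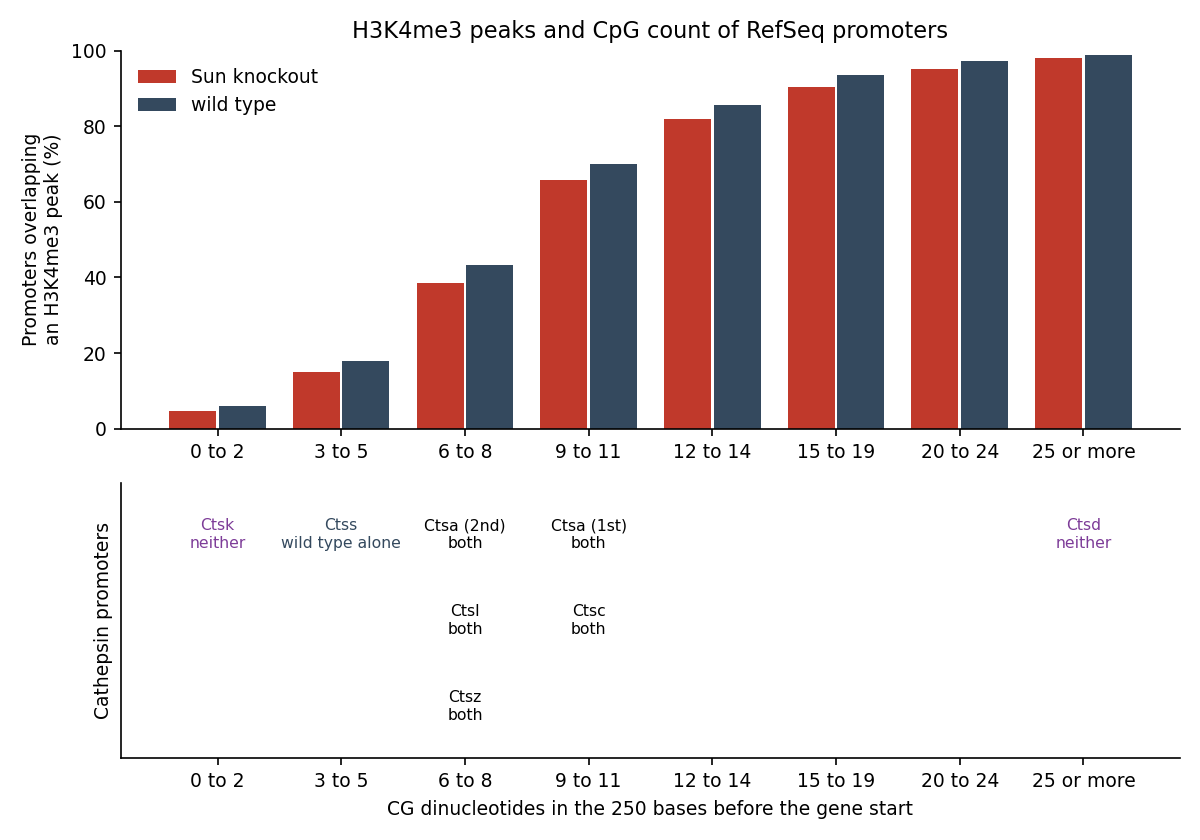
Upper plot: percentage of RefSeq promoters that overlap an H3K4me3 peak (vertical axis) by the number of CG dinucleotides in the 250 bases before the start, for 1 library per genotype. Lower plot: the 8 cathepsin promoters placed by their CG count, with the genotypes in which each overlaps a peak. Ctsd stands in the class in which 98.1% of the Sun knockout and 98.9% of the wild-type promoters overlap a peak, but overlaps none.

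Tags were then summed over all H3K4me3 peaks of a gene, which gives a value also where a domain was split. In the Sun knockout the sums were 803 for Ctsz, 582 for Ctsa, 491 for Ctsb, 246 for Ctsc, 201 for Ctsh, 181 for Ctsl and 120 for Ctss. In the wild type they were 818 for Ctsz, 879 for Ctsa, 911 for Ctsb, 348 for Ctsc, 251 for Ctsh, 480 for Ctsl and 302 for Ctss. All 7 sums were lower in the Sun knockout library, which was also the smaller one, and over 14992 protein-coding genes the median sum was 0.698-fold.

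**Figure D4:**
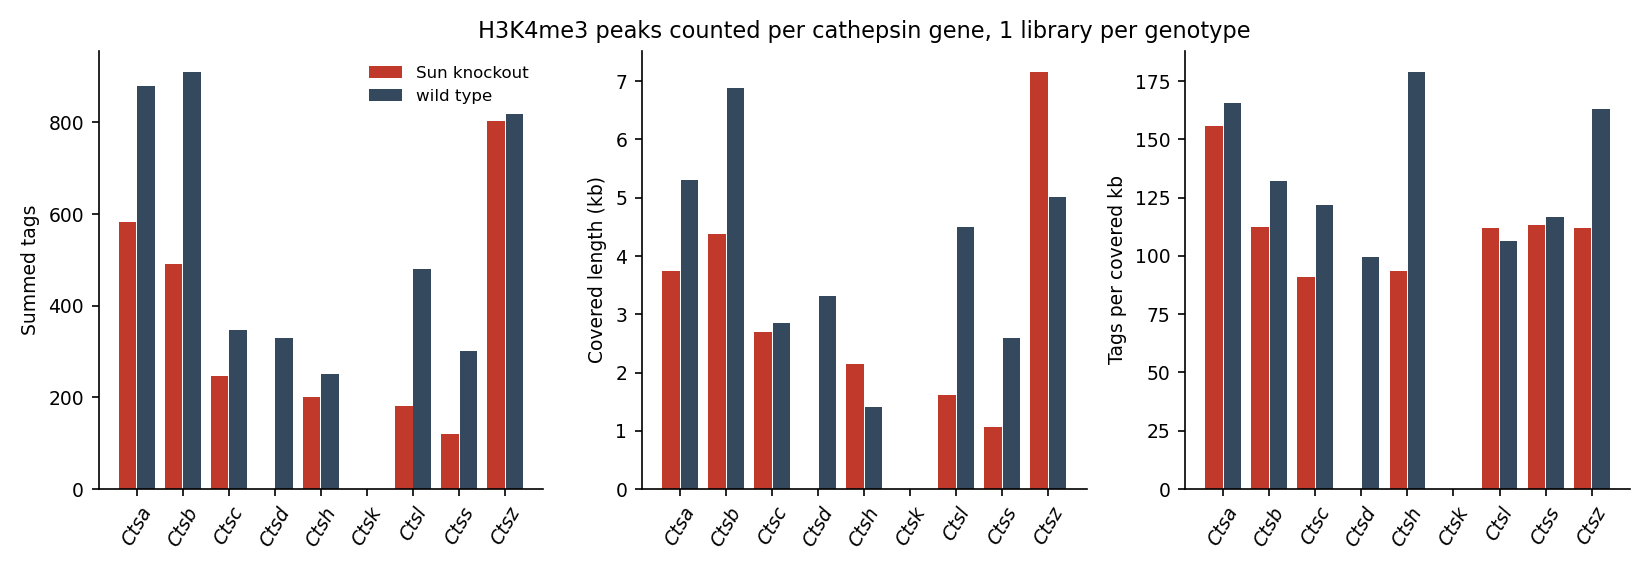
H3K4me3 tags summed over the peaks of each cathepsin gene, the length these peaks cover in kb, and tags per covered kb, with 1 bar per library. The Sun knockout bars of Ctsl and Ctss are low in tags and in covered length but close to the wild type in tags per kb, which are not scaled between libraries. The wild-type bar of Ctsd is the peak at Ifitm10, and the Sun knockout bar of Ctss is the peak at the start of Gm40096.

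Relative to that median, Ctsl had a log2 ratio of -0.89 (interval -1.14 to -0.64), with a covered length of 1618 bp in the Sun knockout against 4505 bp in wild type. Ctss followed at -0.81 (-1.13 to -0.50), with 1061 bp in the Sun knockout against 2585 bp in wild type. Ctsb was at -0.37 (-0.53 to -0.21), with 4371 bp in the Sun knockout against 6890 bp in wild type. Ctsz lay on the other side at 0.49 (0.35 to 0.63), with 7165 bp in the Sun knockout against 5020 bp in wild type. Ctsa at -0.08 (-0.23 to 0.08), Ctsc at 0.02 (-0.22 to 0.26) and Ctsh at 0.20 (-0.08 to 0.47) had intervals that included 0. Of the 7 members 4 were below 0, as were 50% of all genes, and the members' median was -0.08. At the 2-fold limit 0 members were higher and 0 lower, against 1.71% and 1.51% of all genes. Over all genes the median itself was -0.37 with tags scaled to filtered tags and -0.27 with library totals. Scaled to filtered tags or to library totals, Ctsl (-1.26 and -1.16) and Ctss (-1.18 and -1.08) passed the 2-fold limit downwards, as did 4.68% of all genes with filtered tags and 3.31% with library totals. These scalings shift every gene by the same amount, and Ctsa, Ctsc and Ctsh were below 0 under both. Over peaks with a score of at least 100 alone, which leaves out the wild-type peak inside Ctss and the second Sun knockout peak of Ctsc, Ctss was at 0.31 and Ctsc at -0.76.

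Tags per covered kb gave the opposite order for several members. By this measure, centred in the same way, Ctsl was at 0.40, Ctss at 0.28, Ctsa at 0.24 and Ctsb at 0.09, while Ctsz was at -0.21 and Ctsh at -0.61. The Ctsh value includes the sparse peak at its far end, and its main pair alone was at -0.14 (-0.44 to 0.16). Ctsc was at -0.09. The Ctss value sets the peak at Gm40096 alone in the Sun knockout against that peak pooled with the sparser peak inside Ctss in the wild type. The shared Ctss peak alone was at -0.19 (-0.56 to 0.17), the same sign as its sum. By pooled density all 7 members thus had the opposite sign to that by sum, at Ctss through unlike sets of peaks. No direction in H3K4me3 level is therefore given for these genes. Covered length was lower in the Sun knockout at Ctsa, Ctsb, Ctsl and Ctss, whose centred sums were below 0, and higher at Ctsh and Ctsz, whose centred sums were above 0. At Ctsc it was slightly lower, with a centred sum of 0.02. The part of covered length in the sums was not tested. None of the 6 pairs counted for members was at least 2-fold denser or less dense, limits passed by 0.0409% and 0.0117% of all pairs. Ctsl, Ctsc and the Ctsb domain at the lower gene end gave no pair by the overlap rule. The pairs of Ctsd and Ctss were the peaks at the starts of Ifitm10 and Gm40096.

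**Figure D5:**
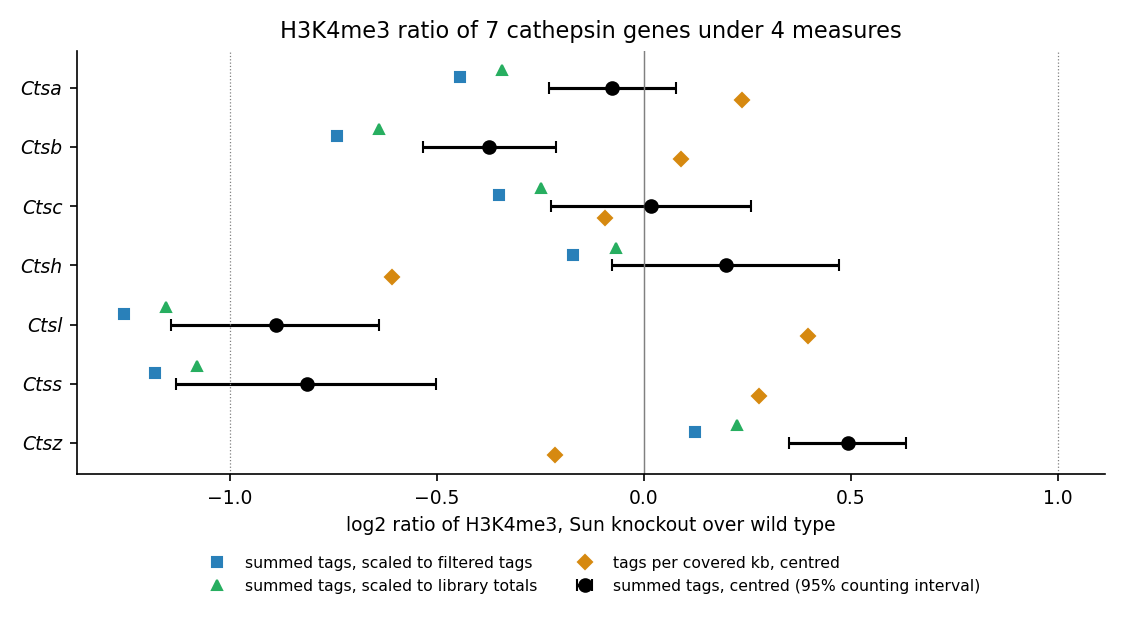
Log2 ratio of H3K4me3, Sun knockout over wild type (horizontal axis), for the 7 cathepsin genes with peaks in both genotypes. Black points are summed tags relative to the median gene with 95% counting intervals, squares and triangles the same sums under fixed scalings, and diamonds tags per covered kb. Ctsl and Ctss lie lowest by sum, at -0.89 and -0.81, but above 0 by density. For Ctss the wild-type density pools a peak that the Sun knockout list lacks.

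Between genes, only tags per kb can be compared. In the Sun knockout Ctsa was the densest, with 156 tags per kb (143 to 169). Ctss, Ctsb, Ctsz and Ctsl followed between 112 and 113, and Ctsh with 93.7 and Ctsc with 91.1 came last. The Ctss value is that of the peak before the gene, over the start of Gm40096, and not of a peak in Ctss itself. The Ctsh value pools the far-end peak, at 50.7 tags per kb, with the peak at its lower end, which had 129 tags per kb and is the one listed in both genotypes. The intervals of these last 6 values overlapped from each gene to the next, and that of Ctsa lay above them. In the wild type Ctsh (179, interval 158 to 203), Ctsa (166, 155 to 177) and Ctsz (163, 152 to 175) were densest and could not be told apart. Ctsb with 132 (124 to 141), Ctsc with 122, Ctss with 117 and Ctsl with 107 followed, with intervals that overlapped from each to the next. The wild-type Ctss value pools the peak at Gm40096 with the peak inside Ctss.

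An H3K9me3 peak was listed at 0 of 9 members in both genotypes, at Ctsh and Ctsk in the Sun knockout alone and at Ctss in the wild type alone, while 6 members had none. Of all protein-coding genes, 17.9% had a peak in both genotypes, 11.8% in the Sun knockout alone, 9.32% in the wild type alone and 60.9% in neither, so the share of members without a peak was near that of all genes. The Ctsk peak held 14 tags (95507572 to 95507772) and lay inside the gene, and the Ctsh peak held 13 tags (90054515 to 90054727). The Ctss peak held 12 tags (95524415 to 95524603) and lay 2183 bp before the gene. List medians were 17 tags in the Sun knockout and 16 in the wild type, and the scores of these 3 peaks lay between 50.7 and 60.5, near the limit of 50.

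The Ctsh and Ctss H3K9me3 peaks lay inside H3K4me3 peaks of the same genotype, that over the lower end of Ctsh and that before Ctss. Such overlap was common, at 33.7% of the Sun knockout and 22.4% of the wild-type H3K9me3 peaks. No member had H3K9me3 of more than 14 tags within 2500 bp.

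Other genes of the pathway were taken from 6 lists of 43 genes, chosen with earlier results of these data known. H3K4me3 was listed at 22 of them in both genotypes, at 0 in the Sun knockout alone, at 5 in the wild type alone and at 16 in neither. Over all protein-coding genes these shares were 68.5%, 1.45%, 2.83% and 27.2%, in the same order. Of the 16 without a peak, 8 were the placental cathepsins. None of the 22 passed the 2-fold limit in either direction, against 1.71% of all genes upwards and 1.51% downwards. Of the other cathepsins, Ctsf and Ctso were marked in both genotypes, Ctse held 35 tags in the wild type alone, and Ctsg and Ctsw, genes of granulocytes and cytotoxic lymphocytes, had no peak. The placental cathepsins, a cluster of rodent genes, had none at 8 of 8 for either mark.

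Of 13 inhibitor genes, 4 were marked in both genotypes. Cst3, which encodes the secreted inhibitor cystatin C, held 380 tags in the Sun knockout and 509 in the wild type, and Cstb, which encodes the intracellular stefin B, held 252 in the Sun knockout and 358 in the wild type. Serpinb6a and Cst6 were the others, and the 4 had centred log2 ratios from -0.07 to 0.40. Cst7 with 38 tags, Serpinb1a with 47 and Ctla2b with 27 were listed in the wild type alone, all with fewer tags than the wild-type median of 89.

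Among activating enzymes and partners, Lgmn, whose product legumain cleaves cathepsin precursors, held 300 tags in the Sun knockout and 436 in the wild type. Neu1 and Glb1, whose products form a complex with the product of Ctsa, held 307 and 315 tags in the Sun knockout, against 360 and 434 in the wild type. Psap, the gene of the saposin precursor, had a peak of 315 tags over 1 of its 2 starts in the wild type alone (chromosome 10, 60284329 to 60286628), with a score of 107, and no Sun knockout peak lay within 5000 bp of the gene.

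All 6 genes of sorting to lysosomes were marked in both genotypes, with a median log2 ratio of -0.12. M6pr, the gene of a mannose 6-phosphate receptor that carries cathepsins to lysosomes, had the lowest at -0.73 (-1.06 to -0.41), with 113 tags in 869 bp in the Sun knockout and 269 tags in 2234 bp in the wild type. As at Ctsl, the lower sum stood beside a narrower peak.

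The 4 genes of MiT factors, which bind the E-box of lysosomal genes, were marked in both genotypes, with a median of -0.27. Tfeb was at -0.44 (-0.55 to -0.33), with 1072 tags in 7356 bp in the Sun knockout and 2084 tags in 14551 bp in the wild type. Mitf was at 0.49 (0.32 to 0.66), with 571 tags in 7002 bp in the Sun knockout and 582 tags in 5843 bp in the wild type. Tfec held 30 tags in 561 bp in the Sun knockout and 75 tags in 1375 bp in the wild type. The wild-type sum pools a peak of 45 tags, which overlapped the Sun knockout peak, with a peak of 30 tags. The latter covered the Tfec start, had a score of 68.7 and was listed in the wild type alone. At Tfeb and Tfec the lower sum stood beside a shorter covered length, and at Mitf the higher ratio beside a longer one. No direction in H3K4me3 level is therefore given for these genes. For H3K9me3 the lists named different places in these genes, so no ratio is given. At Tfeb the Sun knockout list had peaks of 23, 18 and 26 tags, and none of them overlapped the single wild-type peak of 15 tags. At Mitf 1 place was listed in both genotypes, with 21 tags in the Sun knockout and 12 in the wild type, and the Sun knockout list had further peaks of 13 and 20 tags. Tfec had H3K9me3 in the wild type alone, with 13 tags.

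Of the remaining list genes, Neu1 with 14 tags, Sort1 with 13 and Nagpa with 21 had H3K9me3 in the Sun knockout alone. Sort1 encodes a sorting receptor, and Nagpa an enzyme that completes the mannose 6-phosphate tag. Glb1 with 51 tags and Csta2, a stefin gene, with 11 tags had it in the wild type alone. H3K9me3 was listed in both genotypes at Igf2r, with 92 tags in the Sun knockout and 111 in the wild type. The same held for Lgmn (18 and 24 tags), Gnptab (12 and 16) and Serpinb6a (31 and 19). Of all protein-coding genes, 17.9% had H3K9me3 in both genotypes, 11.8% in the Sun knockout alone and 9.32% in the wild type alone.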

How the data were processed

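Each library's deposited file is the authors' own peak list. Per the file headers, MACS 1.4.2 made it from a single library with no control, at a p-value limit of 1e-05, keeping at most 1 tag per position and taking local background from up to 10000 bp. Bowtie 0.12.8, CASAVA 1.4, DiffBind and mm10 are named, without roles, per the submitters' processing notes. Deposited values were the tag count, the score (10 times the negative log10 p-value), a ratio (fold enrichment over local background) and other measures in bp.

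Peaks within 2500 bp of a gene were counted in Python 3.11.15 with pandas 2.3.3, numpy 2.4.6 and scipy 1.17.1 (figures: matplotlib 3.10.9). Pairs overlapped each other alone, by at least 50% reciprocally, with at least 50 tags in 1 library. Ratios were centred on the median gene or pair, with exact conditional binomial 95% intervals. Tags per kb have exact Poisson 95% intervals. The overlap search was checked against a direct search on the wild-type H3K4me3 peaks. The ratios were tested on simulated tag counts with peak positions and widths unchanged, so differences in width were not covered. Genes and promoters came from RefSeq tables of GRCm38.p6.

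The 9 members and all lists were chosen with earlier results of these data known. All members are named. Of the pathway lists, genes with a peak of either mark in 1 genotype alone are named, and further genes as examples.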

Additional observations from a re-analysis of the deposited data

How the results depend on the processing

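No paired analysis was possible because each group held 1 library, and for the same reason no library could be left out. The peak's distance from the gene decided the members called in 1 genotype. Within 0 or 1000 bp, H3K4me3 was listed at 6 members in both genotypes and at Ctss in place of Ctsd in the wild type alone. Within 5000 bp these counts were 8 and 0. H3K9me3 in the wild type alone was at 0 members within 0, 1000 or 5000 bp and with a score of at least 100. Within 5000 bp, 2 members (Ctsb and Ctss) had H3K9me3 in both genotypes, and with a score of at least 100 there were 0 in the Sun knockout alone. The median log2 ratio of the sums was -0.44 scaled to filtered tags and -0.34 scaled to library totals, and each put 2 members, Ctsl and Ctss, past the 2-fold limit downwards. Both scalings shift all genes alike, and 4.68% and 3.31% of all genes also passed. The sign of the median also turned with tags per covered kb (0.09). With a score of at least 100, Ctss was at 0.31 and Ctsc at -0.76, because a peak of each gene fell out. For the 6 pairs, neither an overlap of 80% nor minimums of 20 and 100 tags moved a ratio beyond its interval where the pair was kept. With tags per peak the signs at Ctsa, Ctsb, Ctss and Ctsz turned. Widths and tags were called in each library, and tags outside peaks were not used here.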

Other observations

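Outside the 2500 bp limit, H3K9me3 was listed before Ctsb in both genotypes, with 24 tags in the Sun knockout (chromosome 14, 63119036 to 63119293) and 18 tags in the wild type (63119056 to 63119302). This peak lay 3169 bp from the gene in the Sun knockout and 3160 bp in the wild type. Further Sun knockout peaks lay beyond Ctsk, 3525 bp from it with 16 tags, and beyond Ctss, 3008 bp from it with 17 tags, with no wild-type peak listed at either place.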
